A study of Mus musculus with 10 samples.

Results

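Chemokines are small secreted or membrane-tethered proteins that steer cells along their gradients, and their receptors are G protein-coupled receptors on the cells that follow. Ligand families are named for the spacing of their first cysteines (CXC, CC, CX3C and XC), and most inflammatory chemokines share receptors whereas homeostatic ones tend to have a single main partner. In the mammary gland they are known for drawing macrophages, eosinophils and neutrophils to the growing ducts, and Cxcl12 with its receptor Cxcr4 is known for guiding epithelial and stem cells. The genes described here were all those on the array with a single-symbol probe set whose symbol was Cxcl, Ccl, Cxcr or Ccr followed by a number, or was Cx3cl1, Cx3cr1 or Xcr1. There were 51 such genes, 33 ligands and 18 receptors, among 19935 genes with a single-symbol probe set. A further 7 probe sets that list several chemokine symbols at once were left out.

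The samples were 10 microarrays of total RNA from sorted mammary epithelial cells of virgin female mice aged 8 to 12 weeks. The 3 SSKO basal arrays came from Pygo2 SSKO mice, whose label is not spelled out and whose cells the series title calls Pygo2-null. Pygo2 encodes a chromatin-binding cofactor of beta-catenin. The 3 control luminal arrays and the 4 control basal arrays came from control littermates, whose genotype the labels do not give. Basal cells were sorted as lineage-negative, CD29-high and CD24-positive, a gate that holds the mammary stem cells. Luminal cells were lineage-negative, CD29-low, CD24-positive and CD61-negative. The lineage gate was set against CD31 (endothelial cells), CD45 (leukocytes, which carry most chemokine receptors) and TER119 (red cells). The labels call the arrays biological replicates without giving the animals behind each, so a p-value here reflects only how far these arrays scatter, which may be technical. Fewer cells of a type and less RNA per cell cannot be told apart in such sorted bulk samples.

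Defining markers separated control luminal from control basal cells. All 10 basal markers, such as the smooth muscle myosin Myh11, were lower in luminal than in control basal cells, and all 8 measured mature luminal markers, such as the pioneer factor Foxa1, were higher. Over all genes tested 19.7% were called lower and 24.6% higher. In SSKO basal cells 7 of the 8 luminal markers had a difference above 0 from control basal cells, with a median of 0.71. Of the 8, 1 passed, the transcriptional coregulator Cited1 (1.56, SE 0.18, limma adjusted p = 0.0103), where 0.0379% of all genes did. Pygo2 itself averaged 6.26 in SSKO basal and 8.60 in control basal arrays on the log2 scale used below (difference -2.34, SE 0.32, limma adjusted p = 0.0441). Values throughout are log2(intensity + 16) of the brightest probe set of each gene. Differences are on that scale and understate the change of dim genes, and levels of different genes are not compared because each probe set has its own brightness.

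Many members had low signal. The lowest 25% of probe sets, with a mean over all arrays under 6.74, were not tested, and 14 of the 51 members fell there, 5 ligands and 9 receptors. These were Ccl8, Ccl12, Ccl22, Ccl24, Cxcl5, Ccr1, Ccr2, Ccr3, Ccr4, Ccr6, Ccr8, Ccr9, Cxcr2 and Cxcr5. In 11 of them all 3 group means lay under 6.74, the exceptions being Ccl22, Ccl24 and Cxcl5. The 37 members that passed ranged upward from a mean of 6.77 for Cxcr6, and the brightest that did not pass was Ccl22 at 6.71. As a second guide, 1209 probe sets of olfactory and vomeronasal receptors, genes not known to be used by this tissue, had a median of 6.07 and a 95th percentile of 7.45. Of the 37 tested members, 12 had all 3 group means under 7.45, namely the ligands Ccl1, Ccl6, Ccl9, Ccl17, Ccl26, Ccl28 and Cxcl11 and the receptors Ccr1l1, Cxcr1, Cxcr3, Cxcr6 and Xcr1. Their single arrays lay between 6.46 and 7.71. That left 21 ligands and 4 receptors (Cxcr4, Ccr7, Ccr10 and Cx3cr1) with a group above this guide.

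**Figure D1:**
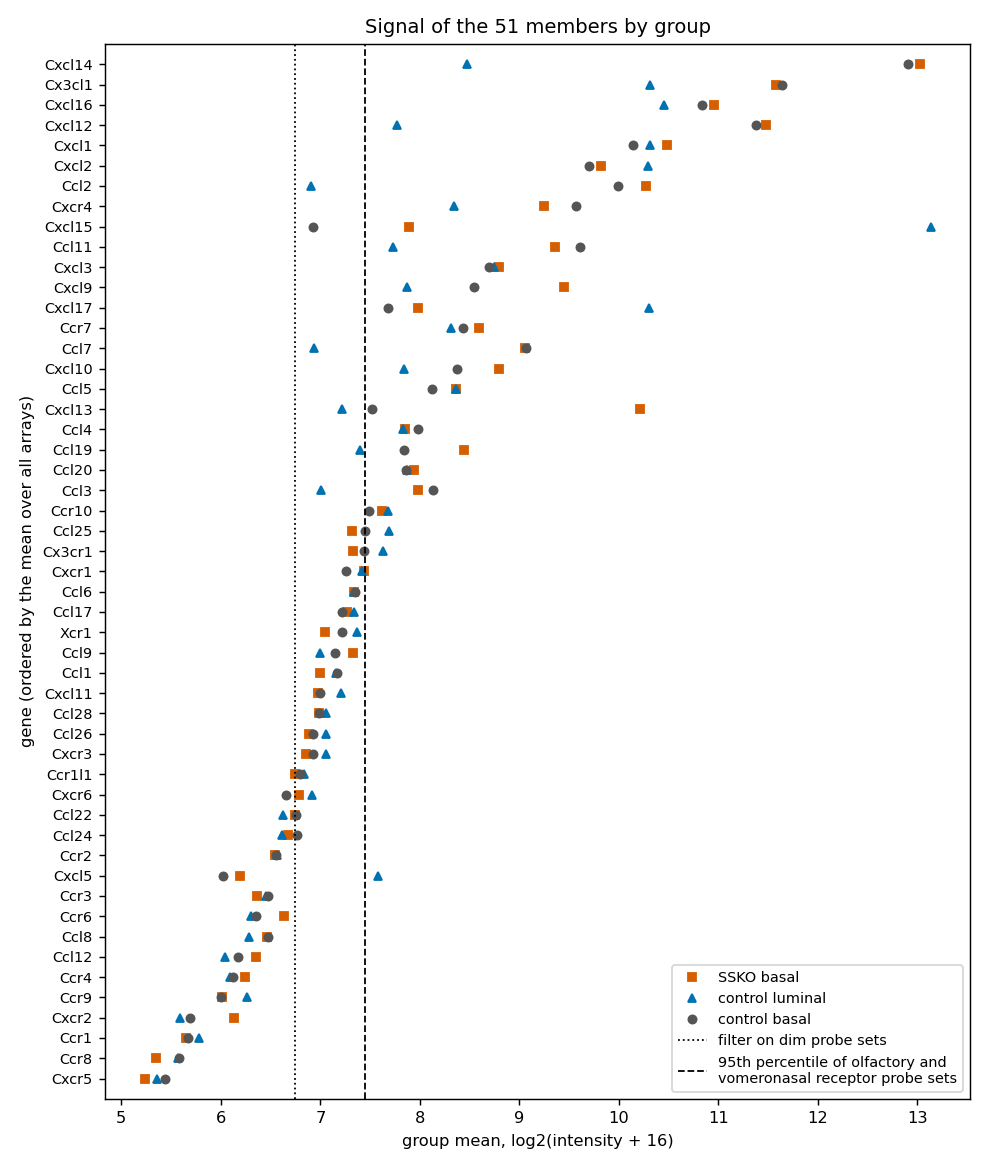
Group means of the 51 members as log2(intensity + 16), one row per gene, with SSKO basal as squares, control luminal as triangles and control basal as circles. The dotted line is the filter at 6.74 and the dashed line the olfactory and vomeronasal guide at 7.45; most receptors sit left of the dashed line, and the order of rows reflects probe set brightness, not transcript abundance.

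The promoters of 7 members are printed here, not all of which differed between luminal and basal cells by the test. Of the 9 members that did, 5 had a promoter among the sequences used. Cx3cl1 had one that is not printed, and Ccl2, Ccl7, Ccl11 and Cxcl17 had none. Cxcl3, Cxcl15, Cxcl1 and Cxcl2 follow each other on mouse chromosome 5 with no other protein-coding gene between them in the RefSeq table, yet only Cxcl15 of the 4 differed by the test. Cxcl14 and Cxcl12 had the 2 deepest falls, and Cxcr4 is the receptor of Cxcl12. Sequences are from RefSeq (GRCm38.p6) and run 5′ to 3′ on the gene's strand from 250 bases before to 50 bases after the annotated start. They lie at chr5:90785851-90786150 (plus strand), chr5:90794284-90794583 (plus strand), chr5:90890995-90891294 (plus strand), chr5:90903649-90903948 (plus strand), chr13:56296502-56296801 (minus strand), chr6:117168285-117168584 (plus strand) and chr1:128592250-128592549 (minus strand). Capitals mark matches to 4 motifs: TATAAA on the gene's strand (TATA box), and TGANTCA (AP-1), GGGNN followed directly by TTTCC (NF-kB) and TTCNNNGAA (STAT) on either strand.
Cxcl3: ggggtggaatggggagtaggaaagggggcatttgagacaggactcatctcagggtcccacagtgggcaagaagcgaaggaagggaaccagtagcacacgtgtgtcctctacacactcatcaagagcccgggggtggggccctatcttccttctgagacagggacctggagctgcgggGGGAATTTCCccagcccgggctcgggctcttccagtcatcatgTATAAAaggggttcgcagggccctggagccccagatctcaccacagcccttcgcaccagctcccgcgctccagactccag
Cxcl15: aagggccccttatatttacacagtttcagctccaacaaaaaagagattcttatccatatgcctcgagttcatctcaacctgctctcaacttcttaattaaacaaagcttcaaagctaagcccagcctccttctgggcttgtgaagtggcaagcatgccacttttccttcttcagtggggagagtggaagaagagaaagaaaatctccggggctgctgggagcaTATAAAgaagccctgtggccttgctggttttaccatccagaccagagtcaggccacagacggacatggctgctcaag
Cxcl1: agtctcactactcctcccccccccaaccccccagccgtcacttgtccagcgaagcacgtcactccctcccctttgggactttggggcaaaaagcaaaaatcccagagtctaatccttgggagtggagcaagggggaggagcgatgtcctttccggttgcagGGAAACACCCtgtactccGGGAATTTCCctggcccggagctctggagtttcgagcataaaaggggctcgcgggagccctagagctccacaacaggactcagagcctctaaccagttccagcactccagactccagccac
Cxcl2: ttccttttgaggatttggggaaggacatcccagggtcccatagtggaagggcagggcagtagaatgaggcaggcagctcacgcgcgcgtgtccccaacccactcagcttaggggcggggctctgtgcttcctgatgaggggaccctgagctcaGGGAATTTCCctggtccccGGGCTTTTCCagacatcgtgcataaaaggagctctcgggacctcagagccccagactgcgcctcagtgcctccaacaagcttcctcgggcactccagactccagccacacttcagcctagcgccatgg
Cxcl14: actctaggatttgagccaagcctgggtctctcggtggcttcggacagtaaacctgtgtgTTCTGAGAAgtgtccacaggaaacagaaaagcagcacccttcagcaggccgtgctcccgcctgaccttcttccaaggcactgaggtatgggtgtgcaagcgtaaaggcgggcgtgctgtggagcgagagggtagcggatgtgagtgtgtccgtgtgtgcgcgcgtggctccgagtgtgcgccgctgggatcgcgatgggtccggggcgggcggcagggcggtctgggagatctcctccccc
Cxcl12: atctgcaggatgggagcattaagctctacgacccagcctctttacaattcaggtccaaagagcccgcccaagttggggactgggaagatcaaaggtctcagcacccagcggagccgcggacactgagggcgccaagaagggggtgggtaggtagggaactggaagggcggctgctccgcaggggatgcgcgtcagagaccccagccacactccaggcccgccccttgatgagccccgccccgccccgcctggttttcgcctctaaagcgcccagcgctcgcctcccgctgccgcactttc
Cxcr4: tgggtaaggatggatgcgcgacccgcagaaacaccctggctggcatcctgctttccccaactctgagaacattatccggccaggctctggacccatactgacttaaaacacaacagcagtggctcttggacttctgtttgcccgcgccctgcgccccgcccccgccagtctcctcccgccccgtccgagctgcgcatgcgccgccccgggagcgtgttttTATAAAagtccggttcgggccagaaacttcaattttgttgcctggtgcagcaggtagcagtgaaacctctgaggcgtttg

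The NF-kB letters occurred in the windows of Cxcl1 (first bases at -89 and -71 from the start), Cxcl2 (-97 and -78) and Cxcl3 (-73), and no such match lay in the window of Cxcl15. They occurred in 1.63% of the 32851 windows in the table and in 6 of the 39 windows that belong to 37 members. The TATA letters occurred at -27 in Cxcl15, at -30 in Cxcl3 and at -30 in Cxcr4, against 8.32% of all windows. The STAT letters occurred at -191 in Cxcl14 (8.3% of all windows), and the AP-1 letters (7.81%) in none of the 7. The window of Cxcl12 held no match. No capital overlaps another motif's match. A match describes letters only.

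Some chemokine transcripts differed between luminal and basal cells of control mice. Cxcl15 and Cxcl17 were higher in luminal cells, and Cxcl14, Cxcl12, Cx3cl1, Ccl2, Ccl7, Ccl11 and Cxcr4 were lower, while the other 28 tested members did not pass. Limma called 9 of the 37 members, or 24.3%, against 44.3% of all 15815 genes tested. The 2 higher calls made 5.41% of the members against 24.6% of all genes, and the 7 lower calls 18.9% against 19.7%. The share called lower was thus close to that of all genes, and the median difference of the members was 0.01 beside 0.07 for all genes. All 9 calls held in each of 23 alternative fits.

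**Figure D2:**
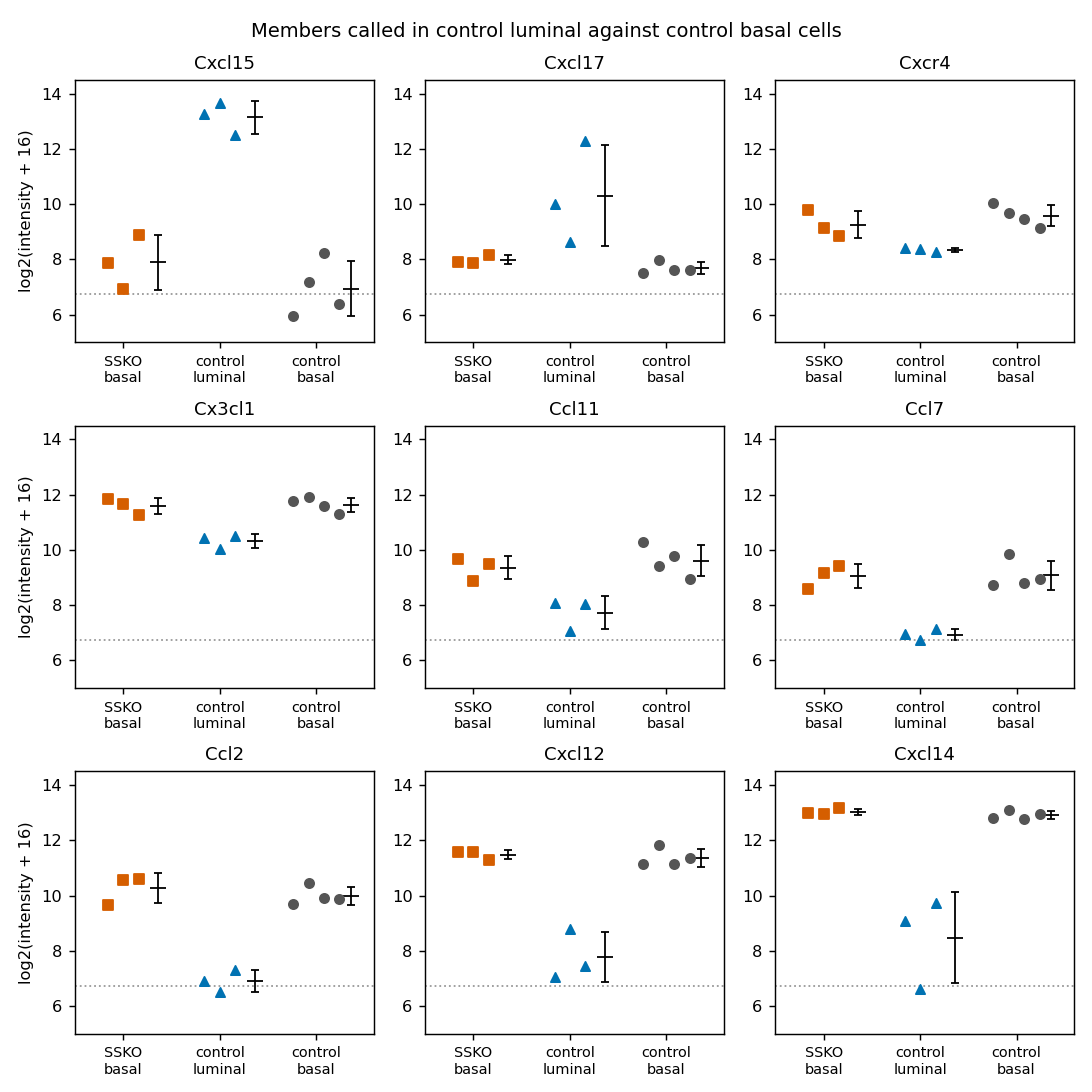
The 9 members called in control luminal against control basal cells, as log2(intensity + 16) by array, with SSKO basal as squares, control luminal as triangles and control basal as circles. Black bars give mean ± SD (n = 3, 3 and 4) and the dotted line the filter at 6.74; luminal arrays lie above all basal arrays for Cxcl15 and Cxcl17 and below all basal arrays for the other 7.

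Cxcl15, known as lungkine, is a mouse CXC chemokine with the glutamate-leucine-arginine (ELR) motif that draws neutrophils. Its probe set (10523145) gave 13.27, 13.65 and 12.50 in control luminal arrays 1 to 3, against 5.95, 7.17, 8.23 and 6.38 in control basal arrays 1 to 4. The luminal arrays were all far above the basal ones, and the control basal arrays themselves spread over more than 2 log2 units. The difference was 6.21 (SE 0.56, limma adjusted p = 4.71e-06), or 74.0-fold. Its control basal mean of 6.93 was above the filter at 6.74 but under the 7.45 guide, so the full size of the difference is not known.

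Cxcl17, a chemokine of mucosal epithelia, had values of 9.999, 8.64 and 12.28 in control luminal arrays, against 7.50, 7.99, 7.59 and 7.63 in control basal arrays. The groups did not overlap, although the luminal arrays differed from each other by more than 3 log2 units. The difference was 2.63 (SE 0.62, adjusted p = 0.00460), and it was 1.64 without luminal array 3 and 3.46 without luminal array 2, with the call kept in both.

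Of the other ELR chemokines, 3 were tested and did not pass. Cxcl1, Cxcl2 and Cxcl3 are neutrophil attractants that act through Cxcr2 and are rapidly induced by inflammatory signals. Cxcl1 lay at 9.98, 10.45 and 10.50 in control luminal arrays and at 10.40, 10.07, 9.55 and 10.55 in control basal arrays (difference 0.17, 95% interval -0.43 to 0.77). Cxcl2 differed by 0.60 (-0.69 to 1.89) and Cxcl3 by 0.05 (-0.35 to 0.45), so Cxcl2 was known less closely than the others. Cxcl2 ranged from 8.66 in SSKO basal array 2 to 11.13 in luminal array 3. Cxcl5, the remaining list member, was not tested because its mean was 6.54. It had 6.31, 8.21 and 8.21 in control luminal arrays, against 6.15, 5.94, 6.13 and 5.88 in control basal arrays, and with no filter its difference of 1.56 passed (limma adjusted p = 0.00687). Their receptor Cxcr2 had group means of 5.59 in luminal and 5.69 in control basal cells, both under the filter.

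Cxcl14 is a homeostatic chemokine made by epithelia such as the epidermis. It had 9.07, 6.61 and 9.75 in control luminal arrays, against 12.83, 13.09, 12.77 and 12.95 in control basal arrays. The 4 basal arrays lay close together and the luminal arrays were scattered well below them. The difference was -4.43 (SE 0.55, adjusted p = 5.99e-05), a 21.6-fold lower signal, and it was -3.50 without luminal array 2 and -5.07 without luminal array 3. The mean level of the 10 basal markers in the same luminal arrays was 7.94, 7.38 and 9.53, lowest in array 2 and highest in array 3 as for Cxcl14. Cxcl17, which was higher in luminal cells, had this order too, whereas Cxcl12, which was lower there, was highest in luminal array 2 (8.80). The part of remaining basal cells in the luminal Cxcl14 values was not tested.

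The Cxcl12 axis was lower in luminal cells at several points. Cxcl12, the ligand of Cxcr4, had 7.07, 8.80 and 7.45 in control luminal arrays, against 11.16, 11.84, 11.14 and 11.37 in control basal arrays, a difference of -3.60 (SE 0.34, adjusted p = 7.18e-06), or 12.2-fold lower. Cxcr4 had 8.39, 8.39 and 8.26 in luminal arrays, against 10.04, 9.66, 9.46 and 9.13 in control basal arrays, a difference of -1.23 (SE 0.24, adjusted p = 0.00158). Neither gene's groups overlapped. The luminal values of Cxcr4 lay within 0.2 of each other. Ackr3, an atypical receptor that binds and clears Cxcl12, is outside the 51 genes and had 7.48, 7.08 and 7.39 in luminal arrays, against 10.50, 11.28, 10.63 and 10.87 in control basal arrays (-3.51, SE 0.20, adjusted p = 1.51e-07).

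Cx3cl1 and Cxcl16 are the 2 chemokines made as membrane proteins and released by cleavage. Cx3cl1 had 10.42, 10.03 and 10.49 in luminal arrays, against 11.77, 11.90, 11.57 and 11.31 in control basal arrays (-1.32, SE 0.19, adjusted p = 1.59e-04), a 2.50-fold lower signal. Cxcl16 did not pass, with 10.46, 10.10 and 10.80 in luminal arrays, against 10.78, 10.66, 10.70 and 11.19 in control basal arrays (-0.38, 95% interval -0.79 to 0.03). Their receptors had low signal. Cx3cr1, the receptor of Cx3cl1, differed by 0.19 (-0.22 to 0.60), and Cxcr6, the receptor of Cxcl16, had a mean of 6.77 and a difference of 0.25 (-0.05 to 0.55).

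Among the CC ligands the falls lay in neighbouring genes. Ccl2, Ccl7, Ccl11, Ccl12, Ccl8 and Ccl1 follow each other on chromosome 11. The first 3, which draw monocytes (Ccl2 and Ccl7) and eosinophils (Ccl11), were called lower in luminal cells. Ccl2 had 6.91, 6.53 and 7.30 in luminal arrays, against 9.70, 10.44, 9.93 and 9.89 in control basal arrays (-3.08, SE 0.27, adjusted p = 3.72e-06), an 8.46-fold lower signal. Ccl7 had 6.95, 6.74 and 7.12 in luminal arrays, against 8.74, 9.83, 8.78 and 8.93 in control basal arrays (-2.14, SE 0.27, adjusted p = 7.26e-05). Ccl11 had 8.09, 7.05 and 8.05 in luminal arrays, against 10.29, 9.42, 9.76 and 8.95 in control basal arrays (-1.87, SE 0.34, adjusted p = 9.19e-04). For each of the 3 all luminal arrays lay below all control basal arrays. Luminal means of Ccl2 (6.91) and Ccl7 (6.93) were near the filter, so the full size of those differences is not known.

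The next 2 genes of the row, Ccl12 and Ccl8, were too dim to test, and Ccl1 differed by -0.02. A second row on chromosome 11 holds Ccl5, Ccl9, Ccl6, Ccl3 and Ccl4, and none of the 5 passed. Ccl3, a macrophage chemokine, came nearest (difference -1.12, adjusted p = 0.0735), with 6.74, 6.81 and 7.47 in luminal arrays against 6.89, 7.88, 8.55 and 9.19 in control basal arrays. The receptors of Ccl2 and Ccl11, Ccr2 and Ccr3, were under the filter in all 3 groups.

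**Figure D3:**
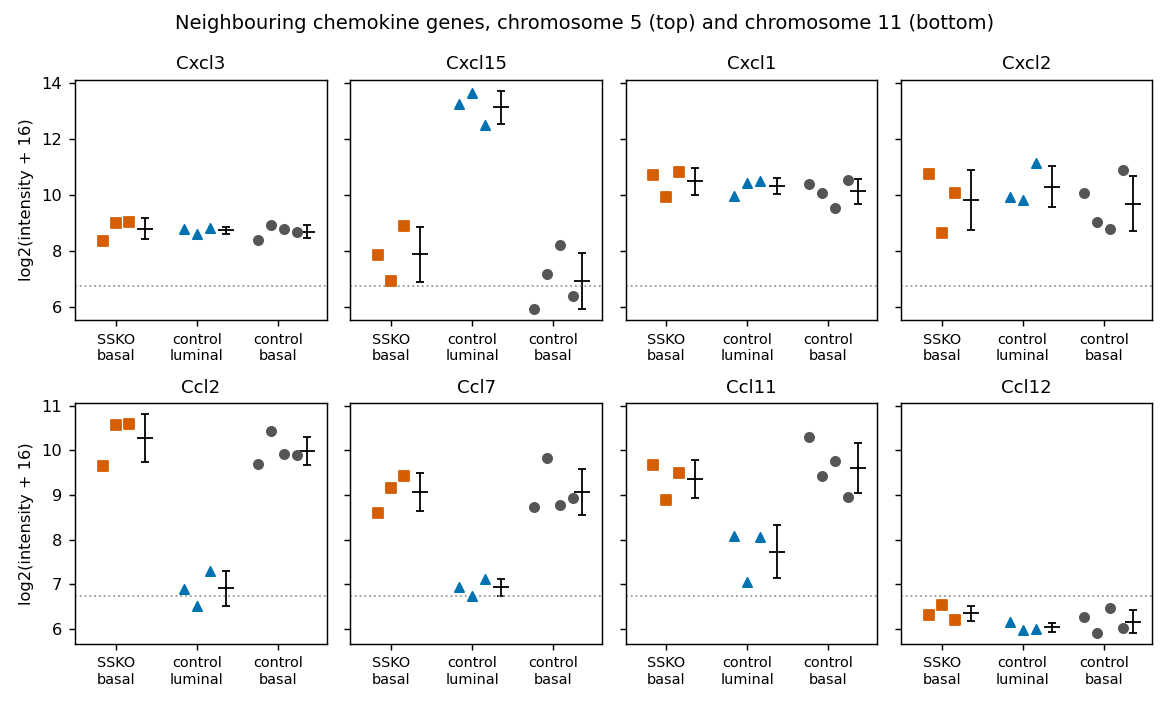
Chemokine genes that follow each other on the chromosome, as log2(intensity + 16) by array with SSKO basal as squares, control luminal as triangles and control basal as circles, black bars giving mean ± SD (n = 3, 3 and 4). In the top row only Cxcl15 separates luminal from basal arrays; in the bottom row Ccl2, Ccl7 and Ccl11 do so while Ccl12 stays below the dotted filter line at 6.74.

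Markers of stromal cells were also lower in luminal than in control basal cells. Of 12 fibroblast markers 11 were called lower in luminal than in control basal cells, with a mean level of 7.10 to 7.54 in luminal arrays and 9.63 to 10.82 in control basal arrays. The example Lum, a collagen-binding proteoglycan, differed by -4.29, and its luminal mean of 5.66 was under the filter. Of 7 tested pericyte markers 6 were lower (mean levels 7.36 to 7.67 in luminal and 8.76 to 9.04 in control basal arrays). Over all genes tested 19.7% were called lower in this comparison. Within the control basal arrays the fibroblast mean was highest in array 3 (10.82). In that array Ccl2 (9.93), Ccl7 (8.78) and Ccl11 (9.76) lay inside the range of the other control basal arrays. Cxcl12 there (11.14) was level with its value in control basal array 1 (11.16). Fibroblasts are known sources of Cxcl12, Ccl2, Ccl7 and Ccl11, and their part in these values was not tested.

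None of the remaining members with signal above the guide passed between luminal and control basal cells. Some intervals were too wide to show a small difference, the widest for Cxcl13 (-0.30, 95% interval -3.11 to 2.51). Among the 3 interferon-induced ligands of Cxcr3, which attract T cells, Cxcl9 differed by -0.68 (95% interval -1.78 to 0.43), Cxcl10 by -0.53 (-1.20 to 0.15) and the dim Cxcl11 by 0.21. Of 6 tested homeostatic chemokines, Cxcl12 and Cxcl14 fell, and Cxcl13, Ccl19, Ccl25 and Ccl28 did not pass. Ccl5 and Ccl25 had all luminal arrays above, and Ccl19 below, all control basal arrays without passing the test. With the 9 called genes that made 12 of 37 members without overlap, against 46.3% of all genes (25.8% with luminal arrays above and 20.5% below). Another, dimmer probe set of Ccl25 had luminal array 1 (7.44) below control basal array 1 (7.48), so there its groups overlapped. Ccl20, the ligand of Ccr6, differed by 0.01 (-0.34 to 0.35). Of the 4 receptors above the guide, Cxcr4 alone passed, and Ccr7 differed by -0.12 (-0.35 to 0.12) and Ccr10 by 0.20 (-0.10 to 0.50).

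Other genes of chemokine handling and signalling included calls in both directions, to be read against the 24.6% higher and 19.7% lower over all genes tested. Of 15 tested genes of the chemokine system outside the 51, 4 were higher and 6 lower in luminal cells. Cmtm8, a chemokine-like factor family membrane protein, differed by 3.84 (SE 0.16), and Ackr4, which scavenges Ccl19, Ccl21 and Ccl25, by -3.51 (SE 0.27). Cmklr1, the receptor of chemerin, differed by -3.40 (SE 0.31). Of 28 signalling genes 8 were higher and 8 lower, among them the kinases Pik3cg (4.17, SE 0.27) and Ptk2b (3.21, SE 0.21), the Rac activator Dock2 (2.57, SE 0.47) and the G protein subunit Gnai1 (-3.28, SE 0.33). Of 21 NF-kB and cytokine genes 7 were higher and 6 lower, with Tnf, a cytokine that induces many chemokines, at 2.31 (SE 0.17), Tlr4 at 1.68 (SE 0.24), Tnfrsf1b at 1.13 (SE 0.23) and Tlr2 at -2.30 (SE 0.39). The largest limma adjusted p among these named genes was 0.00189, for Tnfrsf1b.

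Whether basal cells of SSKO mice differ in chemokine expression was the question of the second comparison, and limma called 0 of the 37 tested members. Over all genes 0.0379% were called, 0.0316% higher and 0.00632% lower, so a count of 0 among 37 is no result about these genes. At an unadjusted p under 0.05 there was 1 member, Ccl19, against 3.03% of all genes. Differences ran from -0.32 for Cxcr4 to 2.69 for Cxcl13, with a median of 0.10 beside 0.01 over all genes tested. Of the 37, 21 were above 0, beside 8236 of all 15815 genes. For 27 members the 95% interval of the difference lay between -1 and 1, and for the other 10 it reached beyond that range on at least 1 side. These intervals use a spread pooled over all 3 groups, so scatter among luminal arrays widens them.

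**Figure D4:**
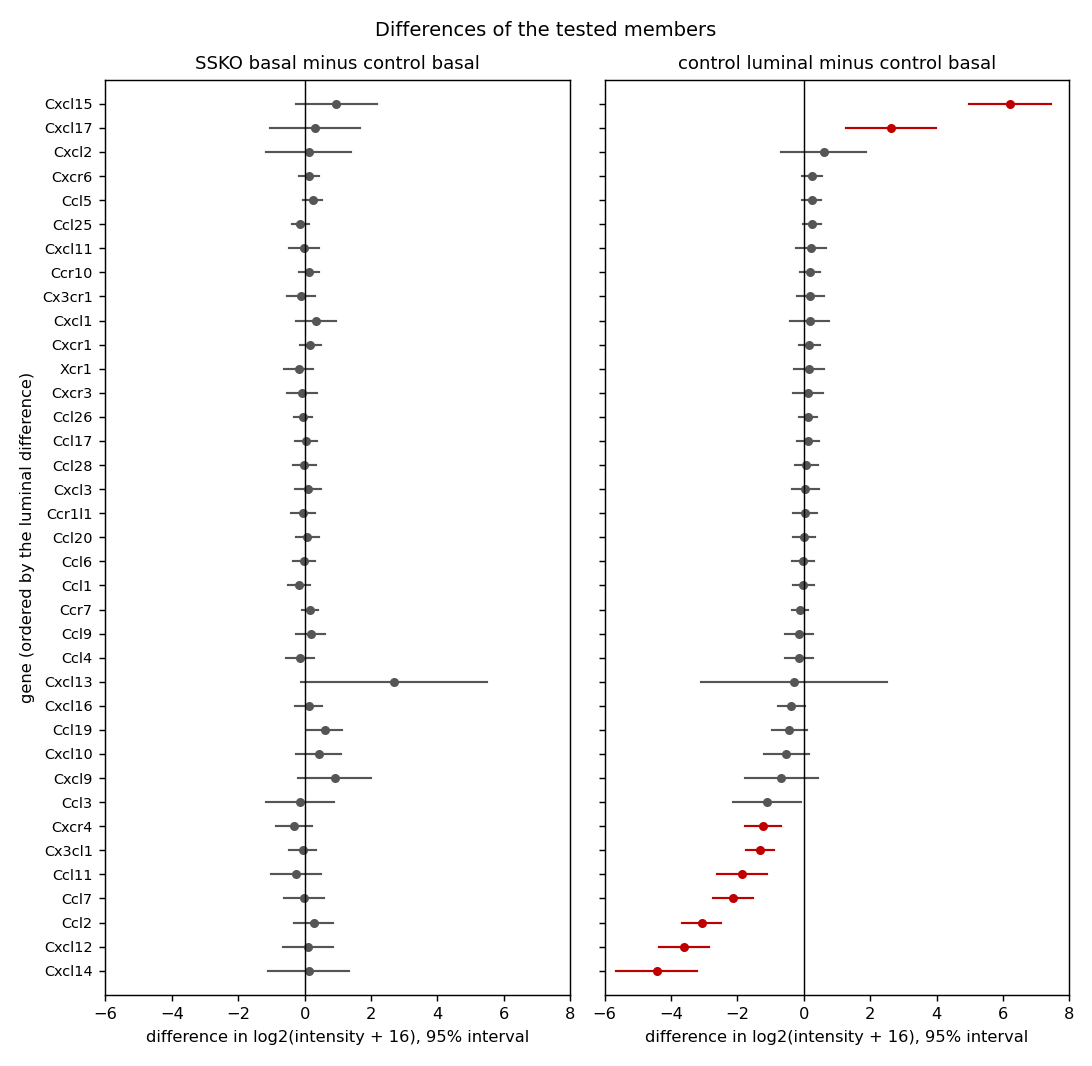
Difference in log2(intensity + 16) with its 95% interval for the 37 tested members, SSKO basal minus control basal on the left and control luminal minus control basal on the right, with genes in the order of the luminal difference. Red marks an adjusted p under 0.05; 9 genes are red on the right and 0 on the left, where Cxcl13 has the widest interval. Both panels share the control basal arrays.

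None of the members that separated luminal from basal cells was called in SSKO basal cells. The intervals of Cxcl14, Cxcl15 and Cxcl17 reached above 1, so they do not show that these genes stayed at their control level. Cxcl14 was 12.98, 12.95 and 13.16 in SSKO basal arrays, inside or just above the control basal range given before (difference 0.12, 95% interval -1.09 to 1.34). Its SD was 1.65 in luminal arrays but 0.11 in SSKO basal and 0.14 in control basal arrays, so this interval mostly reflects luminal scatter. Cxcl12 was 11.56, 11.58 and 11.30 (0.11, -0.65 to 0.86). Cx3cl1 differed by -0.06 (-0.47 to 0.35), Ccl2 by 0.28 (-0.31 to 0.87), Ccl7 by -0.01 (-0.61 to 0.59), Ccl11 by -0.25 (-1.0 to 0.50) and Cxcr4 by -0.32 (-0.85 to 0.21). Of the luminal pair, Cxcl17 differed by 0.30 (-1.05 to 1.66), with an SD of 1.84 in luminal, 0.17 in SSKO basal and 0.21 in control basal arrays. Cxcl15 had 7.85, 6.92 and 8.90 in SSKO basal arrays, overlapping the 5.95 to 8.23 of the control basal arrays (0.96, -0.27 to 2.18, unadjusted p = 0.114). The mean of the 8 mature luminal markers was 10.42, 10.30 and 10.74 in SSKO basal arrays, against 9.42, 9.66, 9.78 and 10.31 in control basal arrays, and its part in the Cxcl15 values was not tested.

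The 6 members of smallest unadjusted p were Ccl19, Cxcl13, Ccl5, Cxcl9, Cxcl15 and Ccr7. Cxcl13, which draws B cells into follicles, had 11.86, 6.92 and 11.85 in SSKO basal arrays 1 to 3, against 10.24, 7.0, 5.82 and 7.03 in control basal arrays 1 to 4. SSKO arrays 1 and 3 and control array 1 were high and the other 4 basal arrays low, so the groups overlapped (2.69, 95% interval -0.12 to 5.50, unadjusted p = 0.0590). Ccl19, a ligand of Ccr7 that guides T cells and dendritic cells, had 8.92, 7.76 and 8.65 in SSKO basal arrays, against 7.90, 8.09, 7.79 and 7.56 in control basal arrays (0.61, 0.08 to 1.13, unadjusted p = 0.0282, limma adjusted p = 1.00). Its 5 probe sets lay within 0.23 of each other on every array. Probe sets 10504159 and 10512322 had the same value on each array, so the probe sets are not independent measurements and their closeness is no added support. Cxcl9, a ligand of Cxcr3, had 9.75, 8.18 and 10.43 in SSKO basal arrays, against 9.46, 7.79, 8.06 and 8.89 in control basal arrays (0.90, -0.20 to 2.01). Cxcl10 differed by 0.43 (-0.25 to 1.11).

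The mean level of endothelial markers was highest in the same arrays, though not every marker was. The mean of 12 endothelial markers, which include Pecam1 (CD31, used in the lineage gate) and Cdh5, was 10.85, 8.15 and 9.86 in SSKO basal arrays 1 to 3, against 9.93, 8.33, 8.82 and 8.63 in control basal arrays 1 to 4. Vwf of this list was an exception, with 9.40, 7.45 and 7.45 in SSKO basal arrays, against 8.75, 7.86, 8.50 and 7.49 in control basal arrays. Each of the other markers was highest in SSKO arrays 1 and 3 and control array 1. Glycam1, a milk gene that is also made by the high endothelial venules of lymph nodes, was chosen after its values were seen. It had 16.18, 7.45 and 15.25 in SSKO basal arrays, against 14.16, 7.99, 7.56 and 7.70 in control basal arrays. The endothelial mean and Glycam1 were thus highest in the 3 arrays that were high for Cxcl13. Madcam1, another gene of such venules and likewise chosen afterwards, stayed under the 7.45 guide, between 6.40 and 7.30 in all 7 basal arrays. It was highest in SSKO arrays 3 (7.30) and 1 (7.11), while control array 1 had 6.62. The part of endothelial cells in these values was not tested. Leaving out SSKO arrays 1 and 3 and control array 1 gave a difference of 0.31 for Cxcl13, -0.06 for Ccl19, -0.06 for Cxcl9 and -0.34 for Cxcl15. Those 3 arrays are also the highest basal arrays for Cxcl13 and Cxcl9. SSKO array 2, the single SSKO array left, is the lowest SSKO array for Cxcl13, Ccl19, Cxcl9 and Cxcl15. For each of these genes the lower difference thus follows from which arrays were removed, and the array left borrows its spread from the remaining groups. Without SSKO array 2 alone, differences were 4.34 for Cxcl13 (limma adjusted p = 0.324), 0.95 for Ccl19 (0.0991) and 1.54 for Cxcl9 (0.492).

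**Figure D5:**
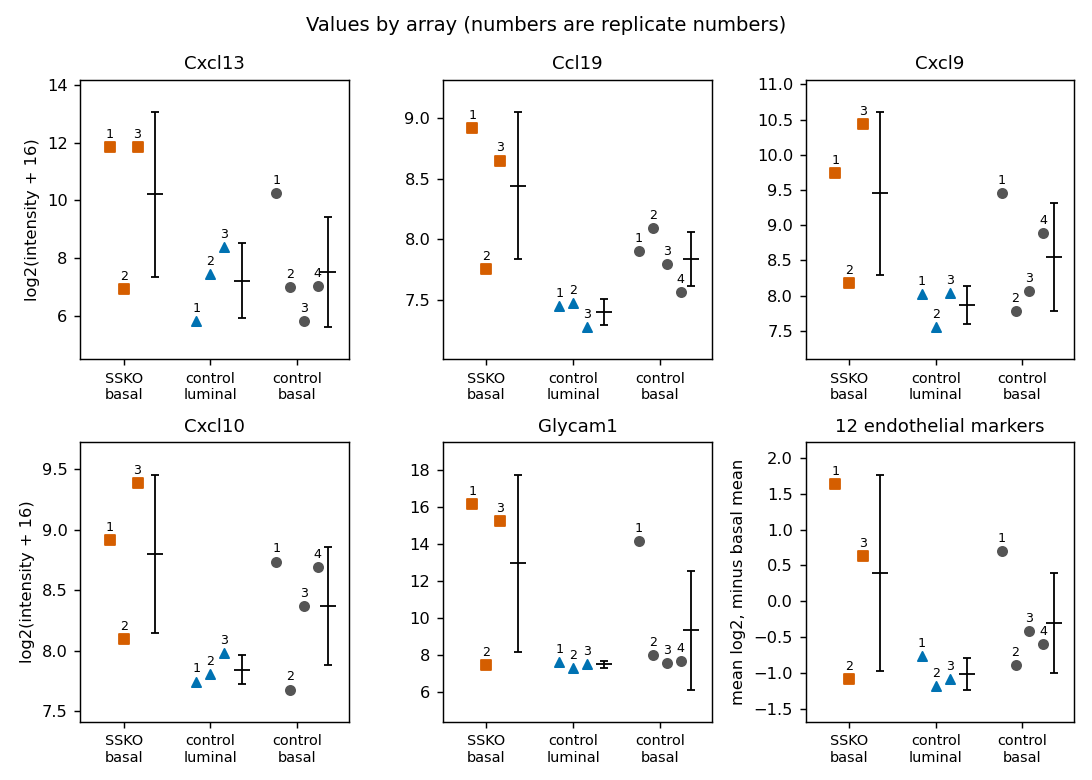
Values by array of Cxcl13, Ccl19, Cxcl9, Cxcl10 and Glycam1 as log2(intensity + 16), and the mean of 12 endothelial markers minus its mean over the 7 basal arrays, with replicate numbers beside the points and mean ± SD as black bars (n = 3, 3 and 4). SSKO basal arrays 1 and 3 and control basal array 1 are the highest of the basal arrays for Cxcl13, Glycam1, Cxcl9 and the endothelial mean; Ccl19 is high in the 2 SSKO arrays but not in control array 1.

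The interferon markers partly followed Cxcl9 and Cxcl10. The mean of 10 such markers was 8.19, 8.01 and 8.70 in SSKO basal arrays, against 8.52, 7.61, 7.57 and 8.12 in control basal arrays. Cxcl9 and Cxcl10 were highest of the basal arrays in SSKO array 3, as was the interferon mean, while control array 2 was lowest for both chemokines and control array 3 for the interferon mean. None of the 10 markers passed in the SSKO comparison, with a median difference of 0.39. The immune marker list, of which 15 of 19 were tested and Adgre1, Cd3g, Cd79a and Ms4a1 were under the filter, had mean levels of 7.87 to 8.16 in SSKO basal and 7.53 to 7.90 in control basal arrays, with 0 members called. Ptprc, which encodes the gated antigen CD45, stayed between 6.66 and 7.02 on all 10 arrays. The other markers given per array are those called in luminal against control basal cells, Cd14 higher (2.23) and Lyz2, Cd74 and Cd68 lower. Lyz2 had 8.48, 7.12 and 8.12 in SSKO basal arrays, against 7.87, 7.41, 7.57 and 7.29 in control basal arrays. Cd14 had 8.66, 7.21 and 8.23, against 8.00, 7.73, 7.51 and 7.39. Both were highest of the basal arrays in SSKO arrays 1 and 3 and control array 1, as was Cxcl13. Cd74 was highest in SSKO array 1 (10.59) and control array 1 (10.39), and Cd68 in control array 2 (9.44). Among markers not called, Csf1r was highest of the basal arrays in control array 2 (7.99), and the dim Tyrobp was lowest in SSKO array 3 (6.77). The part of leukocytes in the chemokine values was not tested. The 17 dissociation stress genes had mean levels of 11.53 to 11.76 in SSKO basal and 11.36 to 11.83 in control basal arrays.

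Ccr7 was the sole tested member whose SSKO and control basal arrays did not overlap, where 4.46% of all genes did so, 2.45% with SSKO arrays above and 2.02% below. Ccr7, the receptor of Ccl19, had 8.60, 8.61 and 8.57 in SSKO basal arrays, against 8.44, 8.54, 8.43 and 8.32 in control basal arrays, a difference of 0.16 (-0.08 to 0.39). Ccl5, a ligand of several CC receptors, had 8.22, 8.42 and 8.47 in SSKO basal arrays, against 7.89, 8.10, 8.26 and 8.22 in control basal arrays (0.25, -0.04 to 0.53). Both differences were small beside those of Cxcl13 and Cxcl9, and neither passed.

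The related gene lists also held no call in SSKO basal cells. Median differences were 0.04 for the 15 other chemokine system genes, 0.03 for the 28 signalling genes and 0.05 for the 21 NF-kB and cytokine genes. The members of smallest p were Cmtm8 (0.45, SE 0.16) and the decoy receptor Ackr2 (0.44, SE 0.17), Pik3cg (0.61, SE 0.27) and Ptk2b (0.46, SE 0.21), and Il33 (2.65, SE 0.53) and Il1rn (-0.22, SE 0.16). Il33 encodes an alarmin of barrier and endothelial cells. It had 10.20, 9.0 and 11.50 in SSKO basal arrays, against 7.83, 7.11, 7.02 and 8.36 in control basal arrays, with no overlap, an unadjusted p of 3.80e-04 and a limma adjusted p of 0.334.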

How the data were processed

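For each of 10 Affymetrix arrays the authors deposited a linear intensity for 28815 probe sets. Expression Console 1.1 (Affymetrix) and PLIER 2.0 are named, without their roles, per the submitters' processing notes, and the sources used here do not state how arrays were normalized to each other. Array medians lay between 205 and 228. Gene symbols came from GEO's platform annotation, updated by gene ID, and all 51 members matched the RefSeq gene table (GRCm38.p6).

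Deposited values were turned into log2(intensity + 16), the dimmest 25% of probe sets by mean were dropped, and the brightest single-symbol probe set stood for each gene. Limma 3.58.1 in R 4.3.3 (lmFit, eBayes) fitted 3 group means to all 10 arrays over 15815 genes, with 7 residual degrees of freedom, two-sided tests and Benjamini-Hochberg adjustment over all genes, called under 0.05. The steps were tested on simulated data. Figures used matplotlib 3.10.9.

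Members called in either comparison, and in SSKO basal cells the 6 members of smallest p and those without overlap, are given per array. From the other lists up to 4 called genes with the largest luminal difference and the 2 of smallest SSKO p are named. The members and lists were chosen with earlier results of these data known. The number of arrays limits the precision.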

Additional observations from a re-analysis of the deposited data

How the results depend on the processing

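Each count and difference was recomputed under 23 alternatives: a smaller and a larger pseudocount, no filter or a filter on 50% of probe sets, quantile normalization, centring, the mean of a gene's probe sets, the compared groups alone, a variance trend, array weights, the replicate block, the endothelial covariate, each array left out, and the 3 basal arrays of highest endothelial level left out together. The 9 members called in luminal cells kept call and direction in all of them. The count called higher was 2 or 3, with Cxcl5, Cxcr6 or Ccl25 added in single settings, and the count called lower 7 to 9, with Ccl3, Ccl19, Cxcl10 or Cxcl16 added in some. Leaving out single arrays gave 2 higher and 7 to 8 lower. With the replicate block the counts were 2 and 8. In SSKO basal cells the count stayed at 0 in all 23 settings (limma), and the smallest adjusted p of any named member was 0.0991, for Ccl19 without SSKO array 2. Leaving out an SSKO array gave Cxcl13 differences of 1.87 to 4.34, Cxcl9 0.42 to 1.54 and Cxcl15 0.45 to 1.44, and leaving out control basal array 1 gave Cxcl15 0.63. Over all genes 6 were called in SSKO basal cells, against 27 without SSKO array 2, 1 without SSKO array 3, 2 without control basal array 2, 3 with quantile normalization and 0 without the 3 arrays. With the replicate block 5 of all genes were called, and no call of a member was lost. Deviations of same-numbered SSKO and control basal arrays 1 to 3 from their group means correlated at 0.63, 0.46 and 0.05, and SSKO array 3 correlated better with control basal array 4 (0.43), so the numbers are not shown to pair the arrays. Values near the filter have no detection call beside them in the table used, so a low signal there cannot be told apart from background.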

Other observations

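Chemerin and its receptor, outside the chemokine families but acting through a chemokine-like receptor, were both lower in luminal cells. Rarres2, which encodes chemerin and was chosen after its values were seen, had 6.20, 5.96 and 5.91 in control luminal arrays, against 8.13, 7.94, 8.48 and 8.41 in control basal arrays (difference -2.22, SE 0.21, limma adjusted p = 7.30e-06). Cmklr1 had 6.40, 6.09 and 6.80 in luminal arrays, against 10.41, 9.62, 9.38 and 9.89 in control basal arrays. The luminal means of both genes lay under the filter of 6.74, so the full size of the differences is not known. In SSKO basal cells Rarres2 differed by 0.25 and Cmklr1 by 0.21 from control basal cells, and neither passed.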
